A study of Mus musculus with 27 samples.

Results

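Chaperonins are barrel-shaped protein folding machines, and the genes described here encode subunits of the cytosolic chaperonin TRiC and the core chaperones of the mitochondrial matrix. Members were taken by gene name from the count tables, and 10 of 10 names were found among 54532 genes. The 7 TRiC members were Tcp1, Cct2, Cct3, Cct4, Cct5, Cct7 and Cct8, and the 3 mitochondrial members were Hspd1, Hspe1 and Hspa9. Each was present once, under 1 Ensembl identifier, and each passed the filter on low counts in every comparison.

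TRiC is a double ring in which each ring holds one copy of every subunit type, and it folds newly made proteins such as actin and tubulin inside a closed chamber. Prefoldin delivers unfolded chains to it, and phosducin-like proteins act with it. In mitochondria, Hspd1 encodes Hsp60, the ring, and Hspe1 encodes Hsp10, the lid that closes it. Hspa9 encodes mortalin, the mitochondrial Hsp70, which draws proteins through the import channel and folds them in the matrix. Hsp60 and Hsp10 are classical heat shock proteins as well as constitutive ones, and lymphocytes that leave rest enlarge their protein synthesis and mitochondrial mass.

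The cells were splenic B cells of wild-type C57BL6 mice, obtained by negative selection and kept in culture for 3 h. In the first experiment, 5 groups of 4 libraries were sequenced: unstimulated B cells, B cells given LPS (a T-independent stimulus), B cells given IL-4+anti-CD40 (a T-dependent stimulus), and B cells given either stimulus with 1 µM disulfiram (DSF), an aldehyde dehydrogenase inhibitor used against alcohol dependence. A second experiment held 1 library each of unstimulated B cells, LPS, IL-4+anti-CD40, each stimulus with 1 µM DSF and each stimulus with 1 µM ibrutinib, an inhibitor of Bruton's tyrosine kinase. The study's legends call the cells with an inhibitor pre-treated and count the 3 h from stimulation. They do not give the length of the pre-treatment. The study's group names give the solvent DMSO for cultures without an inhibitor. Labels of the first experiment say vehicle for the stimulated ones and name no solvent for the unstimulated ones. No group received DSF or ibrutinib without a stimulus. The study calls the 4 samples of a group biologically independent, but no source used here says from which mice they came, so the p-values measure the spread between these samples, which may be partly technical.

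Total counts per library were 17804851 to 23632992 (first experiment) and 16049295 to 24619776 (second). The members had 2446 to 29014 counts per library in the former and 2066 to 18747 in the latter. Libraries 1 and 2 of the unstimulated group stood apart from libraries 3 and 4: between 8.61% and 8.96% of 9834 genes differed by 2-fold or more across the pairs, against 0.0813% and 0.366% within them. Values against the unstimulated group are therefore also given with either pair alone. The 5 B cell markers, Ms4a1 and Pax5 among them, had a summed level of 1969 to 6948 CPM per library (library-scaled counts). The 6 T cell markers summed to at most 7.27 CPM, and none of the 6 was at 0 in every library.

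Hspd1 and Hspe1 lie head to head on chromosome 1 (mm10). Hspd1 spans chr1:55077835-55088243 on the minus strand and Hspe1 spans chr1:55088132-55091307 on the plus strand, so that their annotated genes overlap by 112 bases. RefSeq (GRCm38.p6) gives Hspd1 a pair of start sites, 95 and 216 bases from that of Hspe1. The windows of 300 bases around the RefSeq start sites, of which 250 lie upstream, were searched on both strands for TTCNNGAA and GAANNTTC, the tail-to-tail and head-to-head pairs of the heat shock element's repeat, and for CACGTG, the E-box. These 8-base motifs can overlap each other. Of the members, 8 had such windows, 11 in all. The stretches below are the matches, 30 bases each from RefSeq and 5′ to 3′ on the strand of the named gene, shown because the largest rises with DSF reported further on were those of Hspe1 and Hspd1. Capitals mark the matched letters.
Hspe1, chr1:55088053-55088082, plus strand: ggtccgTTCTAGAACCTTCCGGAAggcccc
Hspd1, chr1:55088306-55088335, minus strand: ggccggctgggaCACGTGaaaaggccgcgc
Cct5, chr15:31601862-31601891, minus strand: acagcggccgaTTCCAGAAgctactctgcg
Cct2, chr10:117063399-117063428, minus strand: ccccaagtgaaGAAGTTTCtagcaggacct

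The Hspe1 stretch held 2 matches to TTCNNGAA with 1 match to GAANNTTC overlapping both, an uninterrupted run of 18 bases that starts 89 bases upstream of the Hspe1 start site. The same run falls in the window of the second Hspd1 start site, read from the other strand, and in GENCODE vM21 it lies in an untranslated exon of 1 Hspd1 transcript. The E-box of the first Hspd1 window lies in an exon of 2 Hspe1 transcripts, annotated as untranslated in 1 of them. The Cct5 match lies in an exon of 1 transcript of the neighbouring Fam173b, and the Cct2 match in no annotated exon. TTCNNGAA was present in 8.52% of 32851 mouse promoter windows, GAANNTTC in 7.86% and CACGTG in 7.15%. TTCNNGAA was found in the windows of Cct5, Hspd1 and Hspe1, GAANNTTC in those of Cct2, Hspd1 and Hspe1, and CACGTG in that of Hspd1. No match was found in the windows of Tcp1, Cct3, Cct7 and Cct8, and Cct4 and Hspa9 had no window to search. Under LPS, genes without a match rose with DSF by 0.82 (Cct7), 0.58 (Cct8), 0.43 (Cct3) and 0.32 (Tcp1) on the log2 scale. Genes with a match rose by 1.71 (Hspe1), 0.95 (Hspd1), 0.30 (Cct5) and 0.29 (Cct2). Whether a match goes with a rise was not tested. A match is a description of the letters and not a sign of binding.

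Levels between genes were compared as FPKM, which the authors calculated from counts and gene length. These lengths ran from 1474 bases for Hspe1 to 6778 for Cct7, with 2557 for Cct2, and the order of levels rests on them. In CPM, which leaves length out, Cct2 averaged 295 in unstimulated libraries, Cct3 209, Cct7 197 and Tcp1 190. In unstimulated B cells, Cct2 had the highest level at 114 ± 16.9 FPKM (SD, n = 4), followed by Cct5 at 93.8 ± 11, Hspd1 at 81.7 ± 19.4, Cct8 at 76.4 ± 13.7, Hspa9 at 71.2 ± 21.6 and Hspe1 at 68.6 ± 4.38. Lower levels were seen for Cct4 at 50.9 ± 7.23 FPKM, Tcp1 at 37.4 ± 6.06, Cct3 at 32.5 ± 10.1 and Cct7 at 28.7 ± 2.77. Of neighbours in this order, only Hspe1 and Cct4, and Cct4 and Tcp1, had ranges that did not overlap.

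**Figure D1:**
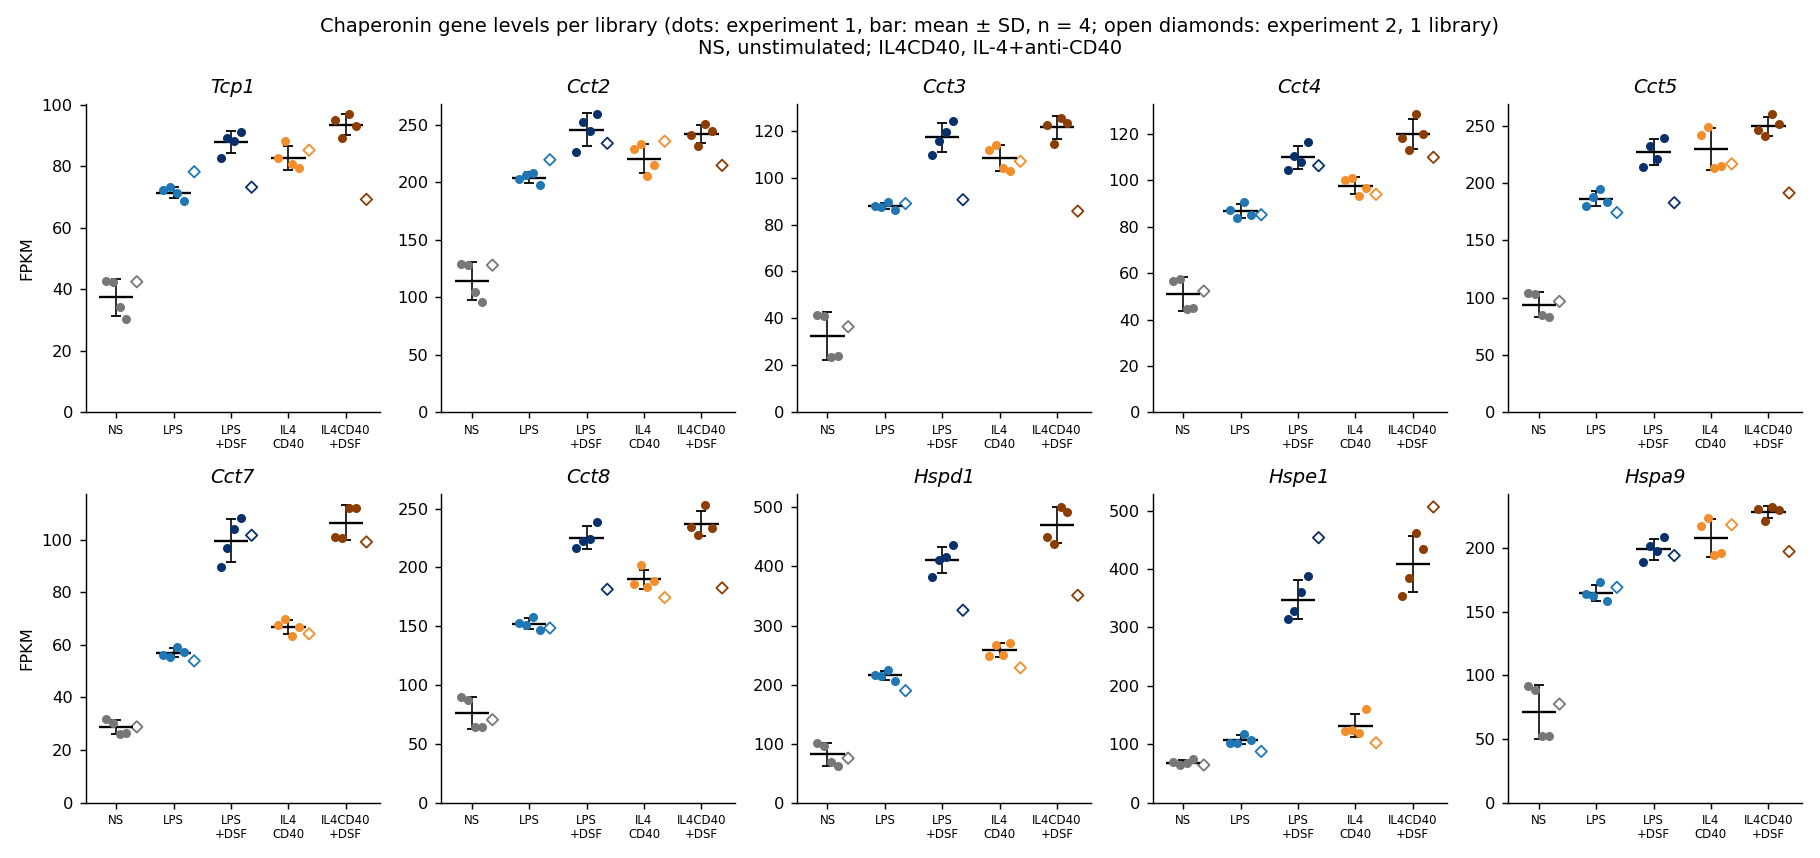
Level in FPKM (linear axis from 0) of each member in every library; dots are the 4 libraries of a group in the first experiment with their mean and SD, and open diamonds are the single libraries of the second, whose FPKM were calculated separately. Hspd1 and Hspe1 stand at 411 and 348 FPKM with LPS and DSF, above the other members of that group.

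With LPS, transcripts of the whole chaperonin group rose over unstimulated B cells. Of the 10 members, 10 passed the test as higher, where 29.6% of all genes tested were higher and 33.3% lower. Their log2 fold changes ran from 0.66 to 1.46 with a median of 1.01, that is 1.58-fold to 2.74-fold, while the median of all genes was -0.05. Cct3, a TRiC subunit, had the highest value and Hspe1 the lowest, an order that changed with unstimulated libraries 1 and 2 alone, where Hspd1 was highest at 1.16 and Cct4 lowest at 0.63. The test was edgeR's quasi-likelihood test with Benjamini-Hochberg adjustment over all genes, and the largest adjusted p among the members was 0.00048.

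Cct3 was at 41.5, 41.0, 23.4 and 24.0 FPKM in the unstimulated libraries and at 88.0, 87.7, 89.6 and 86.3 with LPS. The groups did not overlap, and the unstimulated libraries were split into a higher and a lower pair. The rise was 1.46 ± 0.19 on the log2 scale (SE, edgeR adjusted p = 0.00021). Hspd1 was at 101, 95.4, 68.2 and 62.1 FPKM in the unstimulated libraries and at 217, 215, 225 and 206 with LPS. It showed the same split and no overlap, with a rise of 1.42 ± 0.15 (adjusted p = 5.31e-05). Hspa9 was at 91.6, 88.2, 52.7 and 52.5 FPKM in the unstimulated libraries and at 164, 162, 173 and 159 with LPS. Its rise was 1.23 ± 0.19 (edgeR adjusted p = 0.00048).

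Hspe1 did not follow the split of the unstimulated libraries. It was at 69.0, 63.9, 67.3 and 74.4 FPKM in them and at 102, 102, 118 and 107 with LPS, so the groups did not overlap, but the rise was 0.66 ± 0.08 on the log2 scale (edgeR adjusted p = 0.00011). The mean of unstimulated libraries 1 and 2 was 0.938 of that of libraries 3 and 4 for Hspe1, against 1.18 for Cct7, 1.51 for Hspd1, 1.71 for Hspa9 and 1.74 for Cct3. The other TRiC subunits rose between these extremes with LPS: Cct8, Cct7 and Cct5 by 1.01 each, Tcp1 by 0.95, Cct2 by 0.85 and Cct4 by 0.79.

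With IL-4+anti-CD40, 10 of the 10 members rose, where 30.4% of all genes were higher and 32.1% lower. The log2 fold changes ran from 0.96 for Hspe1 to 1.76 for Cct3, with a median of 1.28, and the largest edgeR adjusted p was 0.00012. Hspd1 was at 248, 267, 250 and 270 FPKM, and rose by 1.69 ± 0.15 on the log2 scale, 3.22-fold. Hspa9 was at 218, 224, 195 and 196 FPKM, with a rise of 1.57 ± 0.19. Of the TRiC subunits after Cct3, Cct8 rose by 1.34, Cct5 by 1.32, Cct7 by 1.24, Tcp1 by 1.17, and Cct2 and Cct4 by 0.97 each.

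With unstimulated libraries 1 and 2 alone, 10 members remained higher under either stimulus, with medians of 0.85 for LPS and 1.11 for IL-4+anti-CD40. Under IL-4+anti-CD40 Hspd1 was then highest at 1.40 and Cct4 lowest at 0.78, with Hspe1 at 1.00. With libraries 3 and 4 alone, 10 were higher again, with medians of 1.17 and 1.42. Scaling by total counts in place of TMM moved the median of all genes by -0.23 for LPS and -0.15 for IL-4+anti-CD40. The counts of genes called were then 2903 higher and 6387 lower with LPS, against 4283 and 4818 with TMM, and 3454 higher and 5574 lower under IL-4+anti-CD40, against 4389 and 4633. The smallest member rises with that scaling were 0.44 and 0.81.

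Of 6 myeloid markers, 4, Lyz2 and Csf1r among them, fell in each comparison, and 0 passed as higher. The summed level of the 6 was 542 to 659 CPM in unstimulated libraries against 149.5 to 171 with LPS and 172 to 195 with IL-4+anti-CD40. In unstimulated libraries Lyz2 made up most of it, at a mean of 447.6 CPM. Mean Cd14 was at 16.2 CPM in unstimulated libraries, 38.5 with LPS and 7.02 under IL-4+anti-CD40. Mean Cd68 was at 19.7, 16.1 and 19.4 CPM in the same order. Of the B cell markers, 3 of 5 fell in each comparison and 2 did not pass. Neutrophil markers fell in 3 of 5 tested with LPS and in 5 of 5 with IL-4+anti-CD40, from a summed 10.6 to 43.2 CPM. No marker of these lists was at 0 in every library. The part of these shifts in the member values was not tested, and in bulk samples fewer cells of a type and less RNA per cell cannot be told apart.

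The stimuli were also compared with each other. With LPS, 8 of 10 members were lower than with IL-4+anti-CD40 and the other 2 did not pass, where 17.3% of all genes were lower and 22.3% higher (edgeR, adjusted p under 0.05). The differences were small, from -0.06 for Cct2 to -0.29 for Hspa9 on the log2 scale, with a median of -0.23. Cct8 differed by -0.27 ± 0.04, Cct5 and Cct3 by -0.25 each, and Hspd1 by -0.22 ± 0.05. Cct2 (edgeR adjusted p = 0.31) and Hspe1 (-0.25 ± 0.09, adjusted p = 0.0593) did not pass. When all 20 libraries entered 1 fit, 2 members passed instead of 8, whereas DESeq2 called 9, Hspe1 among them, and total-count scaling called 10 as lower. Total-count scaling moved the median of all genes by -0.13, with 2428 genes higher and 4712 lower in place of 3145 and 2439.

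DSF was added to ask how stimulated B cells change under it. With LPS, 10 of 10 members were higher with DSF than without, where 35.1% of all genes were higher and 36% lower. Hspe1, the lid of the mitochondrial chaperonin, rose 3.27-fold, its partner Hspd1 1.93-fold and the TRiC subunit Cct7 1.77-fold. The remaining rises were smaller, from 1.22-fold for Cct2 upwards. The median log2 fold change of the members was 0.40, against 0.0019 for all genes.

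Hspe1 was at 102, 102, 118 and 107 FPKM with LPS and at 314, 329, 361 and 387 with LPS and DSF. Every DSF library was above every library without it, and the rise was 1.71 ± 0.06 on the log2 scale (edgeR adjusted p = 8.34e-19). Hspd1 went from 206 to 225 FPKM with LPS to 382, 411, 415 and 436 with DSF, again with no overlap, a rise of 0.95 ± 0.04 (edgeR adjusted p = 6.18e-16). Cct7 was at 56.0, 55.5, 59.4 and 57.4 FPKM with LPS and at 89.7, 96.9, 104 and 108 with DSF. It was the TRiC subunit that moved most, by 0.82 ± 0.05 (edgeR adjusted p = 8.66e-14).

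Cct8 was at 153, 151, 158 and 146 FPKM with LPS and at 216, 222, 224 and 239 with DSF, a rise of 0.58 ± 0.04 (edgeR adjusted p = 3.12e-12). Cct3 was at 86.3 to 89.6 FPKM with LPS and at 110 to 124 with DSF, a rise of 0.43 ± 0.04. Neither gene's groups overlapped. Cct4 rose by 0.36, Tcp1 by 0.32, Cct5 by 0.30, Hspa9 by 0.29 and Cct2 by 0.29. Total-count scaling shifted the median of all genes by -0.21, and Cct2 at 0.08 and Hspa9 at 0.09 then no longer passed (adjusted p = 0.0816 and 0.0554), leaving 8 members higher. The calls over all genes were then 3473 higher and 6680 lower, against 4966 and 5096 with TMM.

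**Figure D2:**
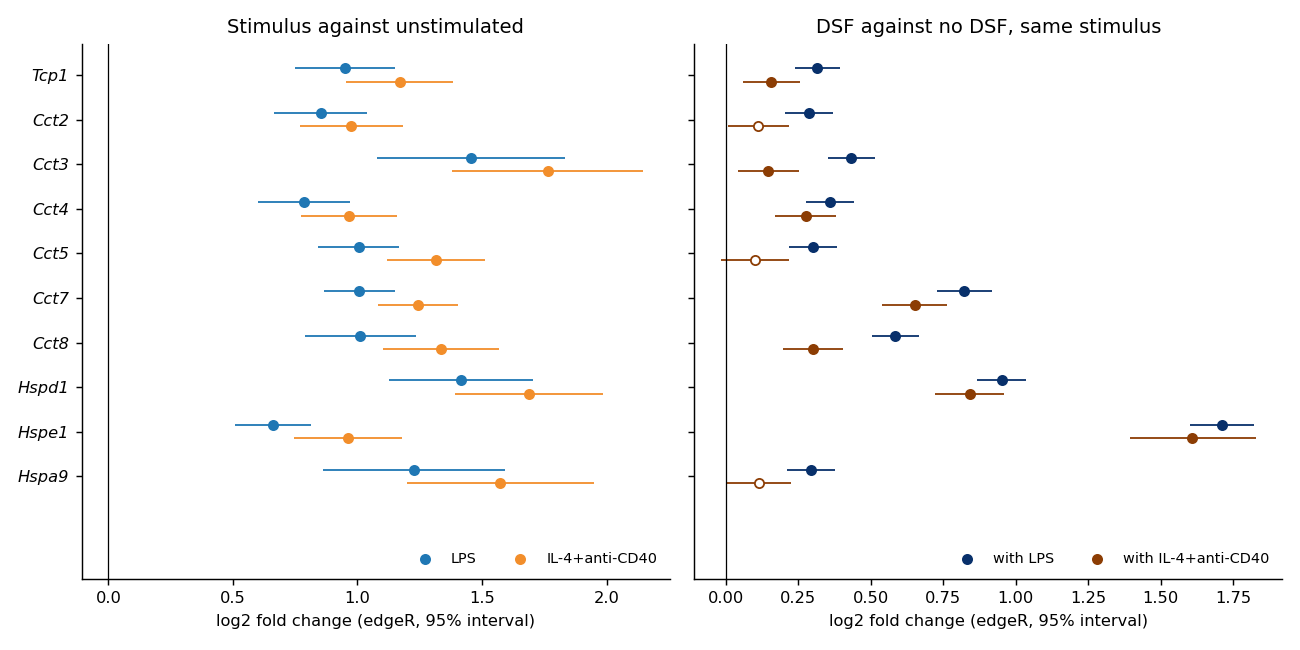
Log2 fold change of each member from edgeR, with normal 95% intervals calculated from its F statistic, which are narrower than its test implies. The left panel compares each stimulus with unstimulated B cells and the right panel compares DSF with no DSF under the same stimulus. Each group had 4 libraries. Filled points passed an adjusted p of 0.05, and the 3 open points (Cct2, Cct5 and Hspa9 with IL-4+anti-CD40) did not (Cct3 there is -0.0027 with total-count scaling). Hspe1 has the largest rise on the right.

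With IL-4+anti-CD40, 7 of 10 members were higher with DSF (5 with total-count scaling, 9 with DESeq2) and 3 did not pass, where 30.1% of all genes were higher and 31.6% lower. Hspe1 was at 123, 124, 119 and 161 FPKM without DSF and at 354, 384, 461 and 435 with it. The groups lay far apart although library 4 without DSF was above the other three, and the rise was 1.61 ± 0.11 on the log2 scale (edgeR adjusted p = 1.23e-06). Hspd1 was at 450, 439, 500 and 492 FPKM with DSF, above the 248 to 270 without it, a rise of 0.84 ± 0.06 (edgeR adjusted p = 1.4e-06). Cct7 was at 67.4, 69.9, 63.3 and 66.7 FPKM without DSF and at 101, 101, 112 and 112 with it. The groups did not overlap and the rise was 0.65 ± 0.06 (edgeR adjusted p = 3.59e-06).

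The other TRiC subunits had smaller differences with DSF under this stimulus. Cct8 rose by 0.30 ± 0.05 and Cct4 by 0.28 ± 0.05 (edgeR adjusted p = 0.00042 and 0.00088). Tcp1 rose by 0.16 and Cct3 by 0.15, which total-count scaling turned to 0.0084 and -0.0027. For Cct2 the difference was 0.11 (95% interval 0.0073 to 0.22, edgeR adjusted p = 0.0894), for Cct5 0.10 (-0.017 to 0.22, adjusted p = 0.17) and for Hspa9 0.12 (0.0052 to 0.23, adjusted p = 0.0953). With total-count scaling, which moved the median of all genes by -0.15, 5 members were higher, and Cct2, Cct5 and Hspa9 stood at -0.04, -0.05 and -0.03. The calls over all genes were then 3262 higher and 5832 lower, against 4301 and 4514. Libraries 1 and 2 of IL-4+anti-CD40 also stood apart from libraries 3 and 4, with 1.29% to 3.45% of 9834 genes 2-fold different across the pairs and 0.254% and 0.386% within them. Cct5 was at 241.5 and 249 FPKM in the former pair and at 213 and 215 in the latter. With the former pair alone, 5 members were higher with DSF, since Tcp1 (0.12) and Cct3 (0.10) no longer passed, and with the latter alone 10 were, with Cct2 at 0.18, Cct5 at 0.20 and Hspa9 at 0.20. Against LPS, the former pair gave 10 members lower with LPS and the latter 8.

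Marker genes were also compared with and without DSF. Of all genes, 35.1% were higher and 36% lower with DSF under LPS, and 30.1% and 31.6% under IL-4+anti-CD40. The marker counts were not tested against these shares. B cell markers fell in 5 of 5 with LPS and in 3 of 5 with IL-4+anti-CD40, where 1 rose. Their summed level was 2801 to 2893 CPM with LPS, 1969 to 2165 with LPS and DSF, 2839 to 3153 with IL-4+anti-CD40 and 2378 to 2537 with IL-4+anti-CD40 and DSF. Myeloid markers rose in 2 of 6 and fell in 1 with LPS (149.5 to 171 CPM without DSF, 165 to 174 with it), and rose in 4 of 6 with IL-4+anti-CD40 (172 to 195 CPM without, 231.5 to 291 with it). Neutrophil markers rose in 2 of 4 tested with LPS (9.89 to 11.1 CPM without DSF, 12.7 to 14.3 with it) and in 1 of 4 with IL-4+anti-CD40. An erythroid marker rose under each stimulus, of 2 tested, and T cell markers fell in 2 of 2 tested with LPS, all at low levels. Their part in the member values was not tested.

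The DSF effects under both stimuli were then compared in 1 fit of 16 libraries. The difference, LPS minus IL-4+anti-CD40, passed for 2 of 10 members, Cct3 at 0.28 ± 0.07 and Cct8 at 0.28 ± 0.07 on the log2 scale (edgeR adjusted p = 0.00823 and 0.00809), where 7.92% of all genes passed as higher and 6.96% as lower. Both rose more with LPS. The remaining 8 differences were between 0.08 and 0.20 and did not pass. For Hspe1 the difference was 0.10 with a 95% interval of -0.17 to 0.36, and for Hspd1 0.11 with an interval of -0.04 to 0.26. With all 20 libraries in 1 fit, 0 members passed with edgeR, 0 were under an unadjusted p of 0.05, and the difference was 0.21 each for Cct3 and Cct8 on the log2 scale, whereas DESeq2 on the 16 libraries called 2. With IL-4+anti-CD40 libraries 1 and 2 alone, 5 members passed (Cct2, Cct3, Cct5, Cct8 and Hspa9), and with libraries 3 and 4 alone Cct3 and Cct8 did.

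Against unstimulated B cells, which differ from the DSF groups in stimulus and inhibitor at once, 10 of 10 members were higher with LPS and DSF (34.3% of all genes higher, 37.3% lower) and 10 of 10 with IL-4+anti-CD40 and DSF (33.4% higher, 35.3% lower). Hspe1 and Hspd1 stood highest in these comparisons, at log2 fold changes of 2.35 and 2.58 for Hspe1 and of 2.34 and 2.54 for Hspd1. With unstimulated libraries 3 and 4 alone, Hspd1 was at 2.65 and 2.86 and Hspe1 at 2.29 and 2.53, below Cct3 at 2.30 in the former comparison. The others were led, with all 4 unstimulated libraries, by Cct3 at 1.86 and 1.92 and Cct7 at 1.80 and 1.90. The lowest value was that of Cct2, at 1.11 and 1.10. With either pair of unstimulated libraries alone, 10 members remained higher in both comparisons, with edgeR's test.

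The order of the levels changed with DSF. Hspe1 was 6th of 10 in unstimulated, LPS and IL-4+anti-CD40 libraries and 2nd in both DSF groups, at 348 ± 32.9 FPKM with LPS and 408.5 ± 48.4 under IL-4+anti-CD40. There it was next to Hspd1, at 411 ± 22.3 and 470 ± 30.7, from which its range was not separate. Below them, Cct2 and Cct5 lay between 227 and 250 FPKM on average in both DSF groups, with overlapping ranges. Cct7, the longest of the member genes, had the lowest FPKM of the members in unstimulated, LPS and IL-4+anti-CD40 libraries, at 28.7, 57.1 and 66.8. With DSF it was at 99.7 and 106.5 FPKM, and Tcp1 became the lowest at 87.8 and 93.6. In CPM, without length, Cct7 was above Tcp1 already without DSF. It was at 197, 395 and 448 CPM in unstimulated, LPS and IL-4+anti-CD40 libraries, against 190, 367 and 412 for Tcp1.

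The ratio of Hspe1 to Hspd1 in FPKM is a description of the balance of lid and ring transcripts. It was 0.669 to 1.20 in unstimulated libraries, 0.473 to 0.526 with LPS and 0.466 to 0.594 with IL-4+anti-CD40. With DSF it was 0.799 to 0.888 under LPS and 0.787 to 0.922 under IL-4+anti-CD40, above every stimulated library without DSF. The ratio of Hspa9 to Hspd1 went the other way with DSF, from 0.764 ± 0.009 to 0.485 ± 0.009 under LPS and from 0.806 ± 0.066 to 0.487 ± 0.025 under IL-4+anti-CD40.

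**Figure D3:**
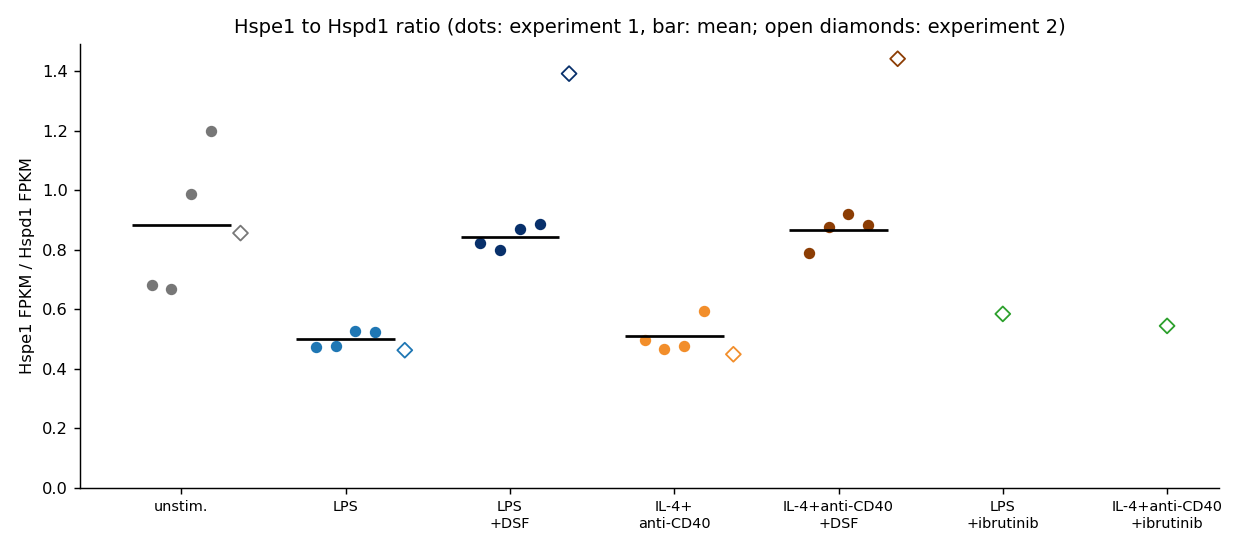
Ratio of Hspe1 to Hspd1 FPKM (linear axis from 0) in each library; dots and the bar of their mean are the first experiment, open diamonds the single libraries of the second. LPS and IL-4+anti-CD40 libraries sit at 0.466 to 0.594 without DSF and at 0.787 to 0.922 with it in the first experiment, and at 1.39 and 1.44 with DSF in the second.

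The summed FPKM of the 7 TRiC members was 434 ± 67.3 in unstimulated libraries, 846 ± 19.8 with LPS and 1112 ± 55.4 with LPS and DSF. It was 995.5 ± 51.9 under IL-4+anti-CD40 and 1170 ± 45.7 under IL-4+anti-CD40 and DSF. Cct6a, a TRiC subunit gene outside the named 10, is in neither this sum nor the shares below. Its level was 46.1 ± 10.8 FPKM in unstimulated libraries, 111.6 ± 4.12 with LPS and 115.6 ± 6.8 with LPS and DSF. Under IL-4+anti-CD40 it was 130 ± 11.1 FPKM without DSF and 126 ± 5.57 with it. Within the sum, the share of Cct7 was 6.66% ± 0.45, 6.75% ± 0.17, 8.95% ± 0.38, 6.72% ± 0.14 and 9.09% ± 0.34 in the same order, with the DSF groups above the others. The share of Cct3 moved with the stimulus, from 7.34% ± 1.21 to 10.4% ± 0.10 with LPS and 10.9% ± 0.16 under IL-4+anti-CD40. Cct2 took 26.3% ± 0.65 in unstimulated libraries and 20.7% ± 0.18 under IL-4+anti-CD40 and DSF. The level of the highest subunit over the lowest was 4.18 ± 0.22 in unstimulated libraries and 2.67 ± 0.05 under IL-4+anti-CD40 and DSF. Differences between subunits in these FPKM values rest on the gene lengths used, 2557 bases for Cct2 and 6778 for Cct7. In CPM, without length, these 2 genes averaged 295 and 197 in unstimulated libraries. In the complex itself the subunit types are present in equal number, which transcript levels do not measure.

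**Figure D4:**
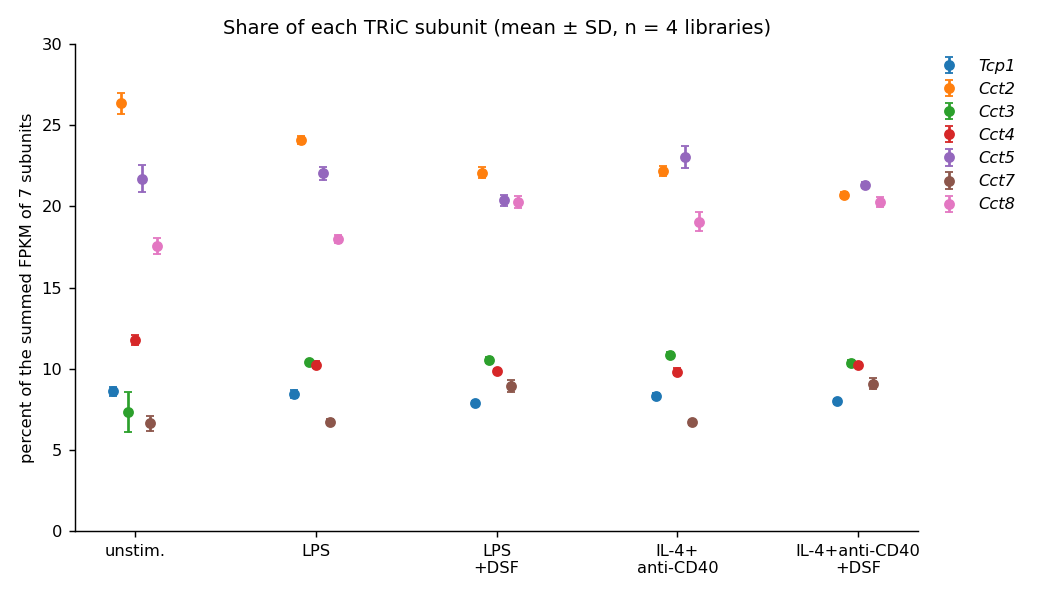
Share of each TRiC member in the summed FPKM of the 7 members, in percent, as mean and SD of 4 libraries per group. Cct6a is not included. Cct7 sits at 6.66 to 6.75% without DSF and at 8.95% and 9.09% with it, and Cct3 is at 7.34% in unstimulated libraries and above 10% in the stimulated ones.

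Among themselves, the members moved closely together across the 20 libraries. Pearson's r of log2 CPM was 0.934 to 0.996 over the 21 pairs of TRiC subunits, and 0.732 to 0.936 between Hspe1 and the other members. After group means were removed, Hspe1 had lower values, with -0.13 to 0.50 against the other members, whereas pairs without Hspe1 were between 0.69 and 0.99. Without the unstimulated group, over 16 libraries, these within-group values were 0.20 to 0.83 with Hspe1 and 0.51 to 0.93 without it. All of them share libraries and depth and carry no test. The 10 genes outside the group whose log2 CPM was most like the members' mean profile, by Pearson's r over 20 libraries among 9824 genes, were Tomm20 (0.996), Srsf2, Cnbp, Atf4, Psmd7, Mat2a, Eif2s2, Psma5, Psmd12 and Vapa (0.988). Tomm20 is a receptor of the outer mitochondrial membrane, Srsf2 a splicing factor, Atf4 a transcription factor of the integrated stress response, and Psmd7, Psma5 and Psmd12 encode proteasome subunits.

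Of the TRiC subunits outside the named 10, Cct6b had 0 to 14 counts per library and was not tested. Cct6a, annotated as a processed transcript in GENCODE vM21, rose with LPS (1.29 ± 0.15) and IL-4+anti-CD40 (1.52 ± 0.16) like the members. With DSF it did not pass under either stimulus: the difference was 0.07 (95% interval -0.016 to 0.15, edgeR adjusted p = 0.16) with LPS and -0.07 (-0.19 to 0.05, adjusted p = 0.36) with IL-4+anti-CD40. With total-count scaling both differences were below 0 and passed, at -0.14 and -0.22.

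Genes of prefoldin, which brings clients to TRiC, and of phosducin-like proteins, which act with it, were mixed. Of all genes, 29.6% rose and 33.3% fell with LPS alone, and 30.4% and 32.1% did so under IL-4+anti-CD40 alone. Once DSF was added, 35.1% rose and 36% fell under LPS, against 30.1% and 31.6% for the other stimulus. Counts of the gene lists here and below were not tested against these shares. Of 9 tested, 5 rose and 2 fell with LPS, and 5 rose and 1 fell under IL-4+anti-CD40, Pfdn2 rising by 1.12 and 1.13 and Pfdn5 falling by 0.28 and 0.45 on the log2 scale. With total-count scaling the LPS counts were 3 and 3. With DSF, 4 rose and 2 fell under each stimulus, against 3 and 5 (LPS) and 3 and 4 (IL-4+anti-CD40) with total-count scaling. Pdcl, a phosducin-like gene, rose by 0.81 ± 0.06 and 0.64 ± 0.08, and Pfdn6 fell by 0.59 and 0.54. Actins and tubulins, the classical clients, moved in both directions with DSF, 6 higher and 4 lower of 15 tested with LPS and 6 and 4 of 14 with IL-4+anti-CD40, a balance that turned to 5 and 7 and to 4 and 6 with total-count scaling. Tubb3 rose by 1.58 and 1.39, and Tubg1, the gamma-tubulin of microtubule nucleation, fell by 1.24 and 1.03. Tuba8 had the largest rise with LPS, from 0.10 ± 0.04 to 1.93 ± 0.66 CPM, and Tuba1c with IL-4+anti-CD40, by 1.37 ± 0.48, the latter not past the threshold with total-count scaling (edgeR adjusted p = 0.0589). Tubg2, at 3.48 ± 2.52 CPM in unstimulated B cells, fell by 4.75 with LPS and fell by 3.87 with IL-4+anti-CD40. With the stimuli alone, 2 of 16 rose and 5 fell with LPS, and 1 of 15 rose and 5 fell under IL-4+anti-CD40.

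Tubulin cofactors, which take tubulin after TRiC, had 1 rise and 2 falls among 6 with LPS and DSF against LPS, and 2 rises and 2 falls with DSF under IL-4+anti-CD40. Tbce rose by 1.22 ± 0.05 and 0.84 ± 0.10, and Tbcd fell by 0.96 ± 0.08 and 0.85 ± 0.06. With LPS alone, 1 rose and 2 fell, and with IL-4+anti-CD40 alone, 2 rose and 1 fell, which total-count scaling turned to 1 and 2. With that scaling, 1 rose and 4 fell with DSF under LPS, and 1 rose and 3 fell under IL-4+anti-CD40. Arl2, a small GTPase that works with these cofactors, fell by 0.55 with LPS and 0.35 under IL-4+anti-CD40. Tbca rose by 0.20 with LPS, which total-count scaling turned to -0.03, and Tbce by 0.56 with IL-4+anti-CD40.

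The partners of the mitochondrial members rose with the stimuli and mostly fell with DSF. Of 9 genes that work with mitochondrial Hsp70, 6 rose and 2 fell with LPS and 8 rose and 1 fell under IL-4+anti-CD40. With DSF, 1 rose and 6 fell under LPS, and 1 rose and 5 fell under IL-4+anti-CD40, with medians of -0.34 and -0.42. The nucleotide exchange factor Grpel2 was the one that rose, by 0.58 ± 0.05 and 0.40 ± 0.06. Dnaja3, a J-protein of the matrix, fell by 0.92 ± 0.05 and 0.67 ± 0.07. Total-count scaling left these directions as they were, with 1 higher and 7 lower and 1 higher and 6 lower. With the stimuli the largest rises were those of Grpel1 by 0.72 ± 0.06 (LPS) and Grpel2 by 1.23 ± 0.07 (IL-4+anti-CD40). Hscb, a J-protein of iron-sulphur cluster assembly, fell with both stimuli, by 0.88 and 0.85.

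Import channel genes of both mitochondrial membranes showed the same contrast. Of 16 tested, 13 rose and the other 3 did not pass with each stimulus, with medians of 1.02 and 1.11. With DSF, 1 rose and 10 fell under LPS, and 1 rose and 11 fell under IL-4+anti-CD40. With total-count scaling, 14 fell under each. Timm10, a small chaperone of the intermembrane space, rose by 1.77 with LPS, and Timm8a1 by 1.84 with IL-4+anti-CD40. Timm50, a receptor of the inner membrane channel, fell by 0.80 and 0.83 with DSF, and Tomm20 rose by 0.48 and 0.27, the latter not past the threshold with total-count scaling (0.12, adjusted p = 0.0569). Of 11 mitochondrial proteases and Trap1, 9 rose and 1, Htra2, fell (by 0.28) with LPS, and 9 rose and 2 did not pass under IL-4+anti-CD40. With DSF, 1 rose and 8 fell under LPS, and 7 fell and 4 did not pass under IL-4+anti-CD40. The one that rose was Yme1l1, by 0.10, which was -0.10 with total-count scaling. Clpp, a matrix protease, fell by 1.06 with DSF under LPS, and Pitrm1, which degrades cleaved presequences, fell by 1.10 ± 0.07 under IL-4+anti-CD40 after rising by 1.43 and 1.32 with the stimuli.

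Cytosolic heat shock chaperones, among them Hsp70, Hsp90 and their cochaperones, mostly rose with DSF. The list counted here also holds Hsf1 and Hsf2, which encode transcription factors and not chaperones. The 1 fall under each stimulus was of one of these. Of 19 tested, 15 rose and 1 fell with LPS, with a median of 2.08, and 16 rose and 1 fell under IL-4+anti-CD40, with a median of 1.73, against 0.40 and 0.22 for the 10 members. Hspa1b, the inducible Hsp70, rose 168-fold under LPS, from 29.5 ± 13.0 to 4818 ± 596 CPM, and the small heat shock gene Hspb1 rose 23.7-fold under IL-4+anti-CD40, from 2.68 ± 3.00 to 64.0 ± 10.9 CPM. With the stimuli alone, 12 rose and 4 fell with LPS and 15 rose and 1 fell under IL-4+anti-CD40. Hsp90aa1 rose by 1.23 ± 0.15 and Hspa4l fell by 0.98 ± 0.11 with LPS. Hspa1b was at 227 ± 317 CPM with IL-4+anti-CD40 against 16.4 ± 14.8 in unstimulated B cells, with overlapping groups, and passed at 3.82 ± 1.29, while Dnajb4 fell by 0.38 ± 0.14. With DSF, Hsf2 fell by 0.21 under LPS and Hsf1 fell by 0.18 under IL-4+anti-CD40. Both are heat shock transcription factor genes, and with the stimuli alone Hsf1 rose by 0.64 (LPS) and 0.76 (IL-4+anti-CD40) and Hsf2 by 0.93 and 0.80. With total-count scaling and DSF, 15 rose and 4 fell under LPS and 16 rose and 2 fell under IL-4+anti-CD40.

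The second experiment gave 1 library per condition, so its values have no replicate check and no test. Log2 ratios are of TMM-normalized CPM with 2 counts added as a prior, for 14275 genes. Against the unstimulated library, with LPS, 10 of 10 ratios were above 0, from 0.45 for Hspe1 to 1.34 for Hspd1, and 4 were 2-fold or more, where 49.4% of all genes were above 0, 8.62% were 2-fold higher and 9.88% lower. Under IL-4+anti-CD40, 10 of 10 were above 0, from 0.66 for Hspe1 to 1.59 for Hspd1, and 6 were 2-fold or more, where 49.3% of genes were above 0, 10.7% were 2-fold higher and 13.7% lower.

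With DSF in the second experiment, Hspe1 was the member past 2-fold under each stimulus, where 20.3% of genes were 2-fold higher and 19.5% lower for LPS, and 21.9% and 20.3% for IL-4+anti-CD40. Hspe1 was at 87.6 FPKM with LPS and 454 once DSF was added, a log2 ratio of 2.38. With IL-4+anti-CD40 it was at 102.5 and 506 FPKM, a ratio of 2.32. Hspd1 was at 190 and 326 FPKM under LPS and at 228 and 351 under IL-4+anti-CD40, with ratios of 0.79 and 0.63. Cct7 was at 53.9 and 102 FPKM under LPS and at 64.2 and 99.2 under IL-4+anti-CD40, with ratios of 0.92 and 0.64. These 3 genes were also the 3 with the largest rises in the first experiment.

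The other members had smaller ratios of both signs, between -0.31 and 0.33. Cct4 had ratios of 0.33 and 0.24, Cct8 of 0.29 and 0.08, and Hspa9 of 0.20 and -0.13, for LPS and IL-4+anti-CD40. Cct2 had 0.10 and -0.12, Cct5 0.08 and -0.17, Cct3 0.03 and -0.31, and Tcp1 -0.09 and -0.29. In all, 9 of 10 members were above 0 with LPS and 5 of 10 under IL-4+anti-CD40, where 48.7% and 49.7% of all genes were above 0, with member medians of 0.25 and -0.02. The LPS median is -0.06 with total-count scaling, and the IL-4+anti-CD40 median is 0.15 when only genes averaging 100 counts or more set the scaling. The summed FPKM of the 7 TRiC members, without Cct6a, was 848.5 with LPS and 970 with LPS and DSF. Under IL-4+anti-CD40 the sum was 977 without DSF and 952.5 with DSF. The share of Cct7 in this sum was 6.35% and 10.5% under LPS, and 6.57% and 10.4% under IL-4+anti-CD40. Cct6a had ratios of -0.84 and -0.94 with DSF, unlike its values near 0 in the first experiment.

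**Figure D5:**
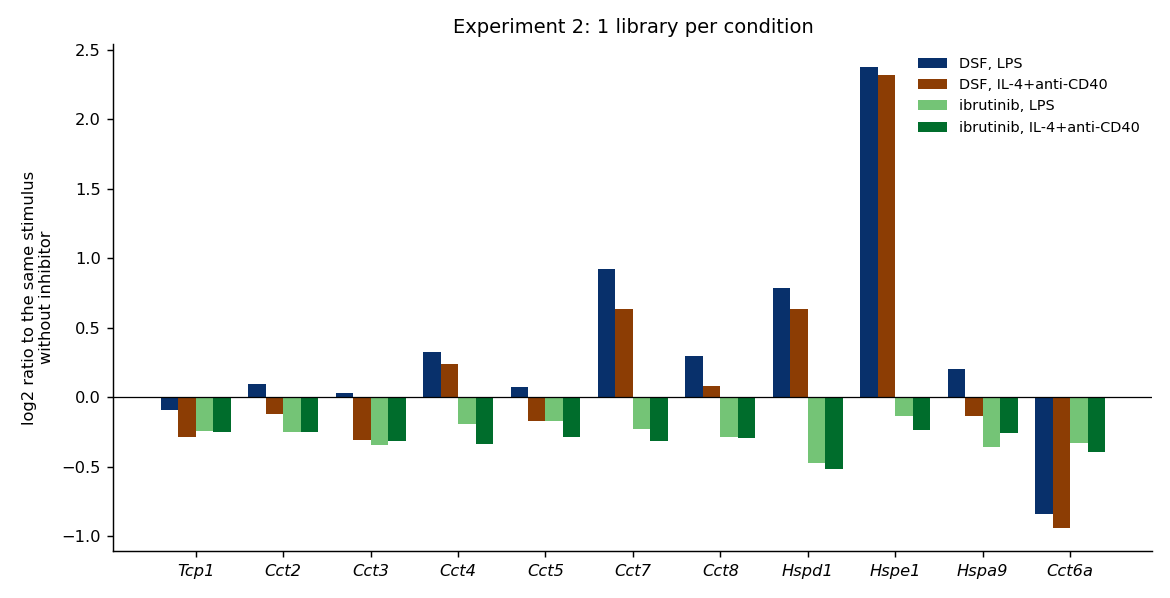
Log2 ratio of each member and Cct6a with DSF or ibrutinib to the same stimulus without inhibitor, in the second experiment, with 1 library per condition and no error. Hspe1 stands at 2.38 and 2.32 with DSF, and all 10 members are below 0 with ibrutinib, from -0.52 to -0.13.

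With ibrutinib at the same dose, chaperonin levels lay below those of the stimulus alone. Under LPS, 10 of 10 members had ratios below 0, from -0.47 to -0.13 with a median of -0.25, where 48.6% of all genes were below 0. Under IL-4+anti-CD40, 10 of 10 were below 0, from -0.52 to -0.24 with a median of -0.29, where 49.3% of all genes were below 0. None of the 10 reached a 2-fold change with ibrutinib, where 2.81% of genes were 2-fold higher and 2.47% lower under LPS, and 2.23% and 1.69% under IL-4+anti-CD40. Hspd1 had the lowest ratio under both stimuli, at 135 FPKM with LPS and ibrutinib against 190 with LPS, and at 159 against 228 with IL-4+anti-CD40. Hspe1 had the ratio nearest to 0, at 78.8 against 87.6 FPKM and 86.4 against 102.5. The Hspe1 to Hspd1 ratio was 0.462 with LPS, 0.584 with ibrutinib and 1.39 with DSF, and 0.449, 0.544 and 1.44 under IL-4+anti-CD40. The share of Cct7 was 6.40% and 6.43% with ibrutinib, close to 6.35% and 6.57% with the stimuli alone.

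Some counts could mix with neighbouring or copied genes. Besides the overlap of Hspd1 and Hspe1, Tcp1 overlaps exons of Mrpl18 and Acat3 on the other strand, Cct7 overlaps Pradc1 by 457 bases and Cct8 overlaps Usp16 by 192 bases. No source used here names the strand setting of the counting, so reads of these stretches are uncertain. Of 14 named pseudogene copies of the members, Hspd1-ps3 had 166 to 703 counts per library, 1.94 to 11.4% of those of Hspd1, and the others had at most 8.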

How the data were processed

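RNA-seq of 27 mouse B cell libraries was used (20 in the first experiment, 7 in the second). The authors selected mRNA with poly-T beads, used Fastp for trimming, aligned the reads to mm10 by HISAT2 v2.0.5 and counted reads per gene with featureCounts v1.5.0-p3. The annotation release and strand setting are not given in the sources used here. The deposited counts were not normalized. The deposited FPKM are the authors' calculation from counts and gene length, separately for each experiment, and were used for levels only.

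The main test on counts was edgeR 4.0.16 (quasi-likelihood with TMM and filterByExpr, 8 libraries per comparison, 16 for the difference of DSF effects, R 4.3.3). Adjusted p-values are Benjamini-Hochberg over all genes, with 0.05 as threshold and no minimum fold change. SE is the log2 fold change over the square root of F, and 95% intervals are normal. They are narrower than edgeR's F test implies, so an interval clear of 0 can go with an unadjusted p above 0.05. The test was tried on data simulated from the LPS groups with and without DSF only. That simulation did not cover the spread of the unstimulated or IL-4+anti-CD40 libraries, nor the difference of DSF effects. Total counts of 16049295 to 24619776 per library gave each member at least 2066 counts.

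The members and lists were chosen with earlier results of these data known. Named were all members, Cct6a and Cct6b, per list the gene with the largest rise and the largest fall past the threshold (mean of at least 10 counts), and the 10 genes most like the members' mean profile (mean of at least 100 counts). Alternatives were DESeq2 1.42.0, its size factors, total counts, other filters, 1 fit of 20 libraries, a minimum fold change, a replicate block, leaving out each library and, added after seeing the data, pairs of unstimulated and of IL-4+anti-CD40 libraries and other scalings of the gene lists. Promoter windows are RefSeq GRCm38.p6 and annotation is GENCODE vM21. One gene of the B cell marker list is not reported here, and the list was summed and counted without it.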

Additional observations from a re-analysis of the deposited data

Results flagged for a closer look

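Hspe1 with IL-4+anti-CD40 had 1 library far from the others: library 4 was at 160.6 FPKM, against 119, 123 and 124 in libraries 1 to 3, by Dixon's criterion for 4 samples. In all, 50 groups of member levels were tested, and chance gives about 1 in 20. The Hspe1 rise with DSF under this stimulus kept its call when that library was left out.

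The DSF effect differed between the stimuli for Cct3, by 0.2823 on the log2 scale, and for Cct8, by 0.2788, by edgeR's interaction term over 16 libraries (adjusted p = 0.00823 and 0.00809). Both rose more with DSF under LPS. With all 20 libraries in 1 fit neither passed.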

How the results depend on the processing

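Across the alternatives, 1419 of the member log2 fold changes kept their direction and side of the threshold, 64 lost the call, 21 gained it and 6 reversed. A minimum absolute log2 fold change of 1 left 6 members higher with LPS, 1 with DSF under LPS, 1 with DSF under IL-4+anti-CD40 and 0 lower with LPS than with IL-4+anti-CD40. With all 20 libraries in 1 fit, 2 members were lower with LPS than with IL-4+anti-CD40, and 0 differed in DSF effect (0 at an unadjusted p of 0.05), and the cause was not tested. With total-count scaling, Cct2, Cct3, Cct5 and Hspa9 with DSF under IL-4+anti-CD40 were at -0.0361, -0.002716, -0.04833 and -0.03316. With IL-4+anti-CD40 libraries 1 and 2 alone, 5 members differed in DSF effect, and the Hspe1 difference was -0.001368. The second experiment's medians with that scaling were 0.7519 for LPS, 1.009 for IL-4+anti-CD40, and -0.05699 and -0.2668 for DSF. With means of at least 100 counts the DSF medians were 0.4446 and 0.1548. The cause of these moves was not tested.

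Leaving out 1 library at a time, between 5 and 8 members were higher with DSF under IL-4+anti-CD40 and between 7 and 9 were lower with LPS than with IL-4+anti-CD40, and the other counts of members stayed as they were. The Hspe1 difference of DSF effects ranged from -0.01636, without library 4 of IL-4+anti-CD40, to 0.156. Whether replicate numbers pair the samples is not known. In no comparison did every same-numbered pair correlate above 0.1, and at most 2 of 4 did, which cannot exclude a pairing of some. Those 2 were replicates 1 and 4 of IL-4+anti-CD40 with and without DSF, at 0.379 and 0.368, against 0.0059 and -0.015 for replicates 2 and 3. With the replicate number as a block, 5 members were higher with DSF under IL-4+anti-CD40 (Tcp1 and Cct3 lost the call), 7 were lower with LPS than with IL-4+anti-CD40 and 2 differed in DSF effect; the counts for the other comparisons remained at 10. Depth did not limit the members, but 1 library per condition limits every ratio of the second experiment.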
